A study of Mus musculus with 22 samples.

Results

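Whole-cochlea RNA at postnatal day 28 (P28) was compared with that at postnatal day 14 (P14). The libraries were chosen by their labels alone, as the total RNA libraries of these ages to which no antibody was applied, called input here. They were 4 of the 22 libraries of the series, 2 at each age. The study pulled down ribosomes tagged in outer hair cells at 5 ages and sequenced them (IP) beside the input RNA of the cochlea. All mice carried PrestinCreERT2/+;RiboTagHA/+, that is, the tamoxifen-activated Cre at the locus of prestin, and an Rpl22 allele that gains a haemagglutinin tag where Cre has acted. All had tamoxifen, at 3 mg per 40 g of body weight when younger than 21 days and at 9 mg per 40 g from 21 days on. The age at injection is not given, so that a change of dose between P14 and P28 cannot be told apart from age. Input RNA comes from every cell of the dissected tissue, and the tag has no part in it. No untreated or Cre-negative cochlea was compared here. The design text speaks of independent biological replicates, and P14 and P28 are different mice by age.

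As background, the mouse cochlea begins to respond to airborne sound shortly before P14 and its hearing matures over the weeks that follow. The organ lies in a bony capsule that forms by endochondral ossification, in which a cartilage template rich in type II collagen is replaced by bone made of type I collagen. Fibrillar collagens also lie in the spiral ligament, the spiral limbus and the tectorial membrane, the gel that couples sound to the hair cells, while type IV collagens form basement membranes.

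The 4 libraries held 57321106 and 57555956 reads at P14 and 54430021 and 43155618 at P28, of which 26254430 to 37123081 a library fell in genes. Values are counts per 1000000 reads of the library (CPM), in which 1 read was worth 0.0174 to 0.0232. They are not divided by gene length, so that levels are compared between ages and not between genes. Between 12393 and 15006 genes reached a CPM of 1. Replicates lay apart: Pearson's r of log2(CPM + 1) across genes, which are not independent, was 0.925 between the P14 libraries and 0.861 between the P28 libraries, against 0.982 at 6 weeks (6wk) and 0.986 to 0.989 at 10 weeks (10wk). At P28, 136 genes had at least 5 CPM in replicate 1 and at most 3 reads in replicate 2, and 74 had the reverse; at P14 these counts were 7 and 23, and at 6wk and 10wk 0. On the first principal component of the 9 input libraries (34.6% of the variance) P28 replicate 2 stood apart at 121, with the others between -35.3 and 19, and on the next (23.3%) P14 replicate 1 at 99.2, with the others between -34.9 and 15.8. The cause was not tested. Abundant markers of cochlear tissue were present in all 4 libraries: Coch of the spiral ligament lay at 5080.01 to 7223 CPM, Slc12a2 of the stria vascularis at 1002 to 1639.9 CPM and Ceacam16 of the tectorial membrane at 451 to 803 CPM. Others were low or uneven, such as Slc26a5 of outer hair cells at 0.301 to 10.5 CPM. Genes known from tissue outside the cochlea were present too, as given below.

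**Figure D1:**
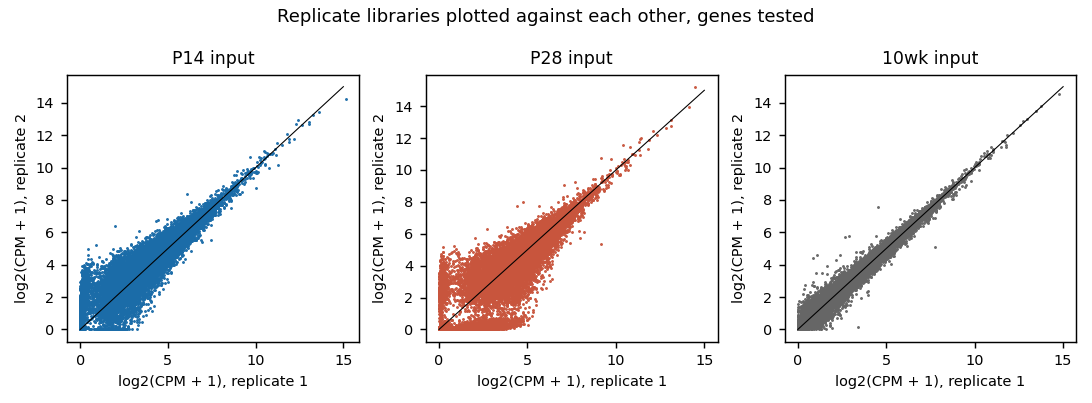
Each panel plots log2(CPM + 1) of replicate 2 (y axis) against replicate 1 (x axis) for every gene tested, at P14, P28 and, for reference, 10wk; the line is equality. The P28 panel is the widest, with bands of genes near 0 in 1 replicate only, and the 10wk panel is the narrowest.

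At P28, RNA for the cartilage collagens made up a much smaller share of the reads than at P14. In a limma fit on log2(CPM + 1) over the input libraries of P14, P28, 6wk and 10wk, 154 of 15944 genes tested were lower at P28 (0.966%) and 45 were higher (0.282%) at a Benjamini-Hochberg adjusted p under 0.05. The decreases ran from 1.28 to 4.59 on the log2 scale and the increases from 1.2 to 4.21, and 131 and 29 of these genes were protein coding. In all of them both libraries of one age lay beyond both of the other, which also held for 20.9% of all genes tested in the direction of a decrease and 15.3% in that of an increase. The median of all genes was -0.07, and 8677 of the 15944 had a change below 0. In bulk RNA, fewer cells of a type, less RNA per cell and a smaller share of a tissue in the dissected sample cannot be told apart.

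The spread in this fit was shared with the 6wk and 10wk libraries, whose replicates lay closer together. Of genes averaging 5 CPM or more, 28.5% differed by over 1 on the log2 scale between the P28 replicates and 16.0% at P14. This share was 5.31% at 6wk and 0.482% between replicates 1 and 2 at 10wk. The shared spread can thus be too small for P28 against P14, and the limma p-values too low. The count of calls changed with the libraries fitted. With the 4 libraries alone, limma called 13 genes, all lower: Col2a1, Col3a1, Col9a1, Col9a2, Col9a3, Col11a1, Col11a2, Col1a2, Sparc, Ibsp, Emilin2, Otor and Rarres1. Without P14 replicate 1, 3 genes remained called, Col2a1, Col9a1 and Col9a3; without P14 replicate 2 there were 675, without P28 replicate 1 3291 and without P28 replicate 2 1096 calls. TMM scaling moved the split from 45 higher and 154 lower to 275 and 374, quantile normalization to 253 and 310, and CPM over gene reads, with mitochondrial genes and Gm42418 taken out, to 219 and 363. Decreases did not lead in every fit. The split was 7 higher and 7 lower with P8 added and 20 and 21 with all 22 libraries. Without P14 replicate 2, increases outnumbered decreases. The edgeR quasi-likelihood test on the recovered reads called 376 genes lower (2.36%) and 201 higher (1.26%), among them 131 of the 154 and 28 of the 45, and none of the 199 turned its direction in any fit that tested it.

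**Figure D2:**
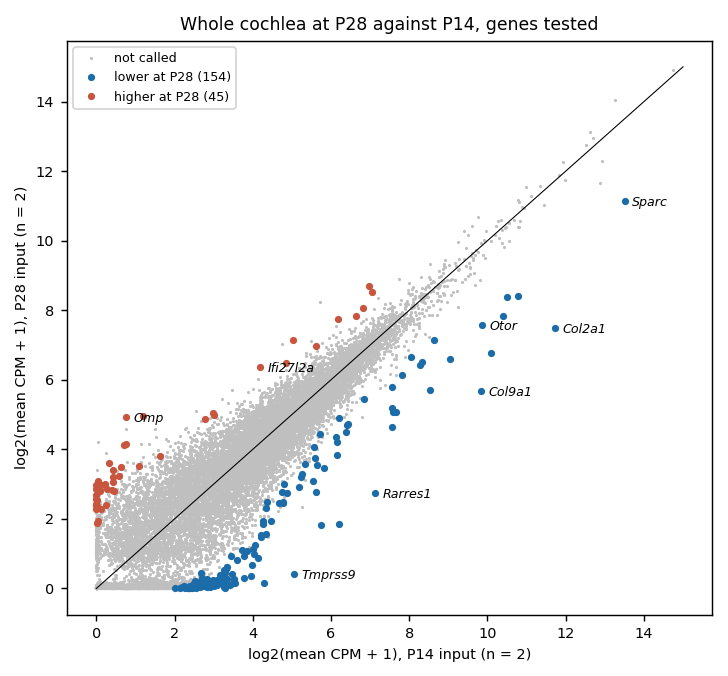
Each point is 1 of the 15944 genes tested, with log2(mean CPM + 1) of the 2 P14 libraries on the x axis and of the 2 P28 libraries on the y axis; the line is equality. Blue points (154) were called lower and red points (45) higher at P28, and Sparc, Col2a1 and Col9a1 stand out among the abundant genes below the line.

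Part of the collagen genes fell. Of 44 genes for collagen alpha chains in the tables, 39 were tested. Of these, 13 fell, against 0.966% of all genes tested, none rose and 26 did not pass. In 36 the log2 change was below 0, as in 8677 of all 15944 genes tested. Col8a2, Col25a1 and Col19a1 were at 0.63, 0.35 and 0.81, not called. The median change of the 39 was -1.79, against -0.07 for all genes tested. In 32 of the 39 both P28 libraries were below both P14 libraries, against 20.9% of all genes tested. Summed over the 44 genes, collagen RNA made up 12271 and 11594 CPM at P14 and 1703 and 2110 CPM at P28. The sum at P28 was thus below both P14 libraries in either replicate. It was 1403 and 819 CPM at 6wk and 1009, 1134 and 1005 CPM at 10wk.

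Of all genes tested, the cartilage collagen genes Col2a1, Col9a1 and Col9a3 had the 3 lowest limma p-values. Col2a1 (chr15:97975602-98004695, GRCm38, gene span on the minus strand) encodes the chain of type II collagen, the main fibre of cartilage, which is also found in the tectorial membrane and spiral ligament. Its level was 3768 and 3039.6 CPM at P14 and 105 and 255 CPM at P28. Both P28 libraries were far below both P14 libraries, and the mean fell 18.9-fold, from 3404 ± 515 (SD, n = 2) to 180 ± 106 CPM (SD, n = 2; log2 change -4.36 ± 0.36 SE, limma adjusted p 0.000229). At 6wk and 10wk Col2a1 was lower still, at 37.8 to 70.5 CPM.

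The 3 chains of type IX collagen, which coats type II fibrils, fell with it. Col9a1 (chr1:24177610-24252684, plus strand) was at 1041 and 795 CPM at P14 and at 34.5 and 66.4 CPM at P28, a log2 change of -4.22 ± 0.35 (SE, limma adjusted p 0.000229). Col9a3 went from 1115 and 1067 to 77.1 and 137 CPM (log2 change -3.39 ± 0.30) and Col9a2 from 1465 and 1217 to 200.2 and 254 CPM (-2.56 ± 0.28). For each of the 3 genes the ages did not overlap. The chains of type XI collagen, which sits in the core of the same fibrils, behaved alike: Col11a1 was at 368 and 376 CPM at P14 and 40.5 and 62.1 CPM at P28, and Col11a2 at 1506 and 1996 against 278 and 393 CPM. Both P28 values were below both P14 values for either gene, with log2 changes of -2.87 ± 0.35 and -2.39 ± 0.32 (SE, limma adjusted p 0.00297 and 0.00725).

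Of the 15 genes listed as cartilage markers, 12 were tested and 6 fell, against 0.966% of all genes tested, those being the 6 collagens above. The list's median change was -2.15. In 10 of 12 both P28 libraries were below both P14 libraries, against 20.9% of all genes tested. Other cartilage genes did not pass the limma test. Cnmd, which encodes the cartilage matrix protein chondromodulin, was at 611 and 593 CPM at P14 and 288 and 257 CPM at P28 (limma adjusted p 0.0601, edgeR adjusted p 0.0193). Acan, which encodes the proteoglycan aggrecan, was at 77.6 and 52.7 against 31.7 and 28.8 CPM (limma adjusted p 0.0961). Sox9, the transcription factor of cartilage that supporting cells also express, was at 218 and 180 against 188 and 116 CPM, with overlapping ages. Matn3 and Col10a1, markers of growth cartilage, were listed at 0 in all 4 libraries. Off the list, 2 further cartilage matrix genes were called: Cilp2, at 53.3 and 52.3 CPM at P14 and 2.90 and 2.25 CPM at P28 (-3.92 ± 0.53 SE, limma adjusted p 0.00725), and Chad, chondroadherin, at 70.2 and 40.6 against 8.45 and 11.8 CPM, which was picked out after its values were seen.

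Genes of bone and its formation also fell in part. Of 17 markers of bone-forming cells, 16 were tested, 6 fell, against 0.966% of all genes tested, and none rose. Their changes ran from -3.19 to 0.998 on the log2 scale. The median change was -1.48, and 11 had both P28 libraries below both P14 libraries, against 20.9% of all genes tested. Runx2 and Sp7 are the transcription factors that commit cells to the osteoblast fate. Runx2 was at 14.1 and 7.02 CPM at P14 and at 0.220 and 0.185 CPM at P28 (log2 change -3.19 ± 0.54 SE, limma adjusted p 0.0234). Sp7 was at 8.22 and 8.20 against 0.129 and 0.0927 CPM (-3.05 ± 0.51 SE, limma adjusted p 0.0234). Neither gene's ages overlapped, but both were higher again later, Runx2 at 2.02 to 2.81 CPM and Sp7 at 0.754 to 4.27 CPM over the 6wk and 10wk libraries.

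Matrix genes of bone fell from higher levels. Sparc encodes osteonectin, a collagen-binding protein of bone and other matrices, and lay at 12517 and 10838 CPM at P14 and 1756 and 2769 CPM at P28, a fall of the mean by 5.16-fold (log2 change -2.40 ± 0.33 SE, limma adjusted p 0.00786). Col1a2, a chain of type I collagen, was at 1418 and 1459 against 352 and 315 CPM (-2.11 ± 0.26 SE, limma adjusted p 0.00297). Ibsp, which encodes bone sialoprotein, was at 247 and 155 against 30.4 and 34.4 CPM (-2.56 ± 0.34 SE, limma adjusted p 0.00626). All 3 had ages that did not overlap, and all 3 stayed low later. Phex, a mineralization gene of osteoblasts and osteocytes, was at 16.9 and 13.3 CPM at P14 and 2.19 and 0.162 CPM at P28 (limma adjusted p 0.0363). It did not pass edgeR (adjusted p 0.0722) and was at 3.12 to 7.72 CPM at 6wk and 10wk, above P28.

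Other bone genes moved less or not in step. Col1a1, the partner chain of Col1a2, was at 260.1 and 303 CPM at P14 and 160.4 and 144 CPM at P28 (log2 change -0.88, limma adjusted p 0.119). Dmp1 of osteocytes was at 105 and 75.7 against 58.5 and 42.9 CPM (limma adjusted p 0.19). Spp1, osteopontin, which many cochlear cells also make, was at 1434.5 and 2106 against 2597 and 1999 CPM, with overlapping ages. Of 10 osteoclast markers 5 were tested and 2 fell, against 0.966% of all genes tested. These were the bone-resorbing proteases Ctsk (72.9 and 98.2 against 21.2 and 29.5 CPM, limma adjusted p 0.0439) and Mmp9 (12.2 and 19.2 against 2.63 and 0.0927 CPM, limma adjusted p 0.0479, edgeR adjusted p 0.119). Dcstamp was listed at 0 in all 4 libraries, and Calcr and Ocstamp held at most 1 read a library. Markers of B and plasma cells, which marrow holds, moved with the bone genes: of 19, 8 were tested. All 8 had a log2 change below 0, as had 8677 of all 15944 genes tested. In 6 both P28 libraries were below both P14 libraries, against 20.9% of all genes tested. limma called none and edgeR 1, Pax5, at 3.63 and 2.76 CPM at P14 and 0 reads in both P28 libraries (edgeR adjusted p 0.0351, limma adjusted p 0.0551). Their summed level was 65.9 and 63.9 CPM at P14 and 32.5 and 14.0 CPM at P28, with Igll1 at 0 in all 4 libraries. Other blood lineages of marrow did not move this way. Genes of neutrophils and precursors summed to 102 and 154 CPM at P14 and 211 and 196 CPM at P28, with a median change of 0.30. Erythroid genes summed to 1096 and 741 against 479 and 1189 CPM, with overlapping ages. The part of marrow cells in the bone values was not tested.

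**Figure D3:**
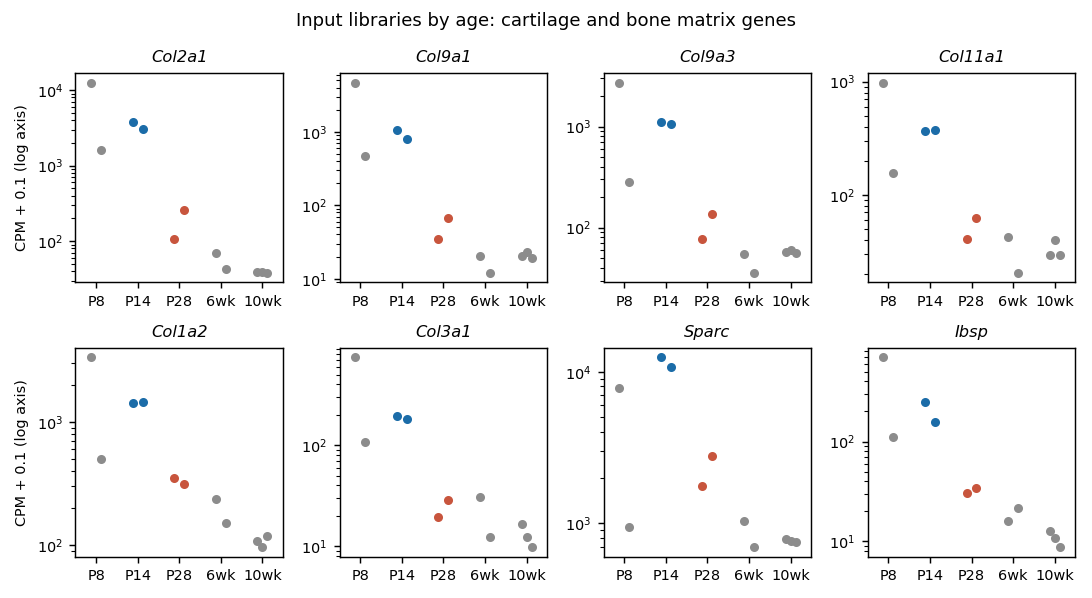
CPM + 0.1 on a log axis for 8 matrix genes in every input library, by age; P14 is blue, P28 red and the other ages grey. In each panel both P28 points lie below both P14 points, and the 6wk and 10wk points of Col2a1, Col9a1 and Sparc lie below P28.

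Because the cartilage and bone genes moved together, the stretch before their RefSeq start sites was read. Of the 12 called cartilage and bone genes, 9 had an entry in the RefSeq promoter table, with 10 windows of 250 bases, since Col9a1 has 2; Col2a1, Col9a3 and Sp7 had none. SOX-type letters (ACAAAG or ACAATG, either strand) were in 2 of the 10 windows, against 25.25% of all 32817 windows. RUNX-type letters (TGTGGT, either strand) were in 1 of 10, against 14.04%, and TATA-type letters (TATAAA, gene strand only) in 1 of 10, against 7.597%. Printed here are 1 collagen and 3 bone windows, the 4 that hold such letters, on GRCm38.p6, 5′ to 3′ on the gene's strand and ending at the base before the start site, with the matching letters in capitals.
Ibsp, chr5:104299037-104299286, plus strand: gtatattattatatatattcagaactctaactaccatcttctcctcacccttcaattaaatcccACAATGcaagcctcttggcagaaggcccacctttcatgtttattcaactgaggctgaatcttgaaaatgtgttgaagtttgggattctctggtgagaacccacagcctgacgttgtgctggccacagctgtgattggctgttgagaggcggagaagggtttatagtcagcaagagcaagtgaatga
Phex, chrX:157415287-157415536, minus strand: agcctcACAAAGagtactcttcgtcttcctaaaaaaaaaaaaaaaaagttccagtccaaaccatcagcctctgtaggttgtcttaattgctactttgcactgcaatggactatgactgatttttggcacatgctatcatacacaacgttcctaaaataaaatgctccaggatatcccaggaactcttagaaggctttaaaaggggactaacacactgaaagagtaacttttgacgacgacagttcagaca
Runx2, chr17:44814628-44814877, minus strand: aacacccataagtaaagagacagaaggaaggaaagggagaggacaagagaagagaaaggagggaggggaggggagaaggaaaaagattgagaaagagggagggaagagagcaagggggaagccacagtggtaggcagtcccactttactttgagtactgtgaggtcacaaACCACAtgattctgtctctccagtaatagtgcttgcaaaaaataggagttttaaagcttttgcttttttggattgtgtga
Col11a2, chr17:34038888-34039137, plus strand: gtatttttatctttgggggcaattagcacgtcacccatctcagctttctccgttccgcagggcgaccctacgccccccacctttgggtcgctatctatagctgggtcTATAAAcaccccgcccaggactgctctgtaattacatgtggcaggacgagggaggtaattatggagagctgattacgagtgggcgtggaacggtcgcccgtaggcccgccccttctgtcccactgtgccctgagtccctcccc
The capitals mark a SOX-type match at position -186 from the start site of Ibsp and at -244 of Phex, a RUNX-type match on the other strand at -80 of Runx2, and a TATA-type match at -143 of Col11a2. The other 6 windows held none of the letters of these 3 searches, which says nothing of the factors themselves.

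Of 15 markers of fibrocytes and mesenchyme, all tested, 4 fell, against 0.966% of all genes tested, and 11 did not pass. The median change was -1.07. In 10 both P28 libraries were below both P14 libraries, against 20.9% of all genes tested, and in 1 both were above. Col3a1, a fibrillar collagen of soft tissue, was at 196 and 181 CPM at P14 and 19.5 and 28.8 CPM at P28 (log2 change -2.94 ± 0.42 SE, limma adjusted p 0.00922). Otor, otoraplin, a secreted protein of the cochlear mesenchyme, was at 1058 and 809 against 173 and 207 CPM (-2.28 ± 0.26 SE, limma adjusted p 0.00223). Emilin2, a secreted glycoprotein, was at 531 and 514 against 127 and 62.9 CPM (-2.53 ± 0.34 SE, limma adjusted p 0.00725), and Col5a1 at 17.2 and 24.8 against 1.25 and 4.45 CPM (limma adjusted p 0.0488, edgeR adjusted p 0.0555). The ages of these 4 genes did not overlap. Coch, cochlin, was at 5080.01 and 6694 CPM at P14 and 7223 and 6487 CPM at P28, and Otos, otospiralin, at 8402 and 6727 against 2581 and 3871 CPM (limma adjusted p 0.127). Pou3f4, the transcription factor of otic mesenchyme, was at 87.4 and 90.7 against 83.0 and 46.3 CPM and did not pass the test.

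Of 19 genes of collagen processing and cross-linking, 2 fell, against 0.966% of all genes tested, and none rose. The median change was -0.75. In 13 both P28 libraries were below both P14 libraries, against 20.9% of all genes tested. Fkbp10, a chaperone of procollagen, was at 95.7 and 45.8 CPM at P14 and 13.8 and 20.9 CPM at P28 (limma adjusted p 0.0469). Adamts2, which cuts off the N-terminal propeptide, was at 80.8 and 56.8 against 22.8 and 16.3 CPM (limma adjusted p 0.0493). The collagen chaperone Serpinh1 (410 and 312 against 147 and 149 CPM) and the cross-linking enzyme Lox (211 and 193 against 94.1 and 45.0 CPM) missed the limma threshold at adjusted p 0.0524 and 0.0551 and passed edgeR at 0.0291 and 0.0334. All 15 basement membrane genes had a log2 change below 0, as had 8677 of all 15944 genes tested, with a median of -0.99. In 12 both P28 libraries were below both P14 libraries, against 20.9% of all genes tested. Of the 15, 1 fell in limma, against 0.966% of all genes tested: Col4a3, at 47.0 and 49.4 against 8.45 and 3.13 CPM (-2.98 ± 0.51 SE, limma adjusted p 0.0277). Its neighbour Col4a4, with which it shares a trimer, was at 55.8 and 41.8 against 18.8 and 5.03 CPM (limma adjusted p 0.0573). The other called collagens were Col22a1, Col27a1 and Col8a1, of which Col8a1 was at 363 and 252 CPM at P14 and at 94.1 and 75.7 CPM at P28.

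**Figure D4:**
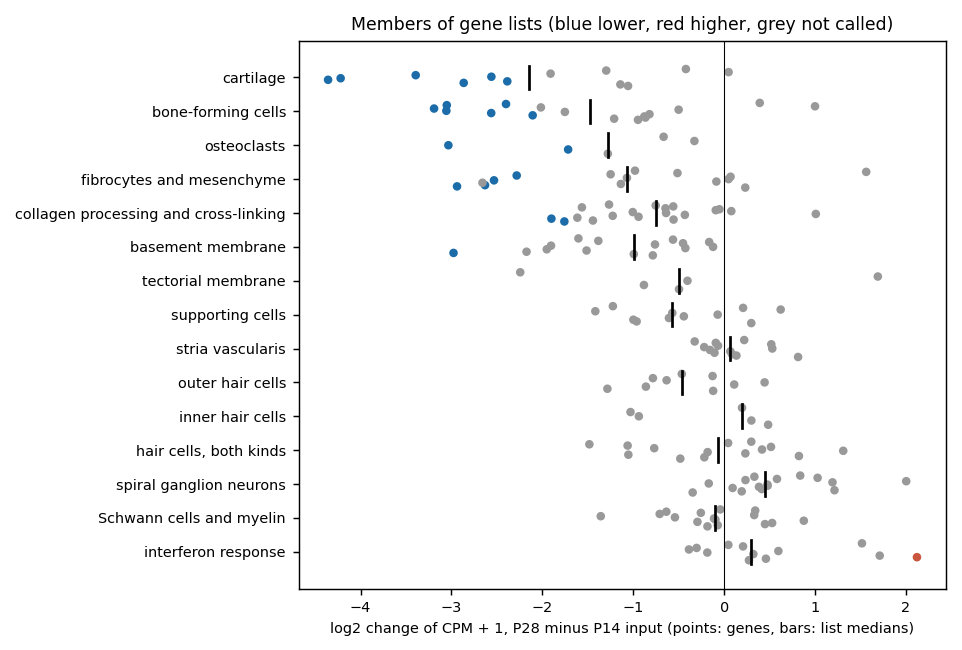
Points give the log2 change of CPM + 1 from P14 to P28 (x axis) of each tested member of 15 gene lists; the bars are list medians. Called decreases (blue) lie in the lists of cartilage, bone, osteoclasts, mesenchyme, collagen processing and basement membrane, and the medians of stria vascularis, Schwann cells and the hair cell lists lie between -0.47 and 0.20.

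In the fixed lists of hair cells, supporting cells, tectorial membrane and stria vascularis, limma called no gene. Slc26a5, the prestin gene that also carries the Cre, was at 2.56 and 4.0 CPM at P14 and 10.5 and 0.301 CPM at P28, so that the P28 replicates lay on either side of P14 (log2 change -0.13 ± 0.82 SE, limma adjusted p 0.959). Without P28 replicate 1 its change was -1.70 and was called (limma adjusted p 0.0311), and without P28 replicate 2 it was 1.44, so that 1 library decided its direction. Ocm, which encodes the calcium buffer oncomodulin of outer hair cells, was at 99.8 and 83.8 against 36.7 and 75.3 CPM (-0.78 ± 0.34 SE, limma adjusted p 0.255). Rpl22, the gene that carries the tag, was at 76.2 and 76.1 against 66.3 and 70.7 CPM (limma adjusted p 0.778). Median changes were -0.47 over 9 outer hair cell genes, 0.20 over 5 inner hair cell genes, -0.07 over 14 genes of both and 0.07 over 13 genes of the stria vascularis. Supporting cells had 11 genes tested and none called by limma. Epyc, the proteoglycan epiphycan, was at 753 and 897 CPM at P14 and 465 and 381 CPM at P28 and passed edgeR (adjusted p 0.0193; limma adjusted p 0.0966). Of the tectorial membrane genes, Tectb was at 36.4 and 21.2 against 2.50 and 9.57 CPM (limma adjusted p 0.0921).

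Neuronal genes leaned the other way without a limma call. Of 16 spiral ganglion genes, 14 had a log2 change above 0, the median change was 0.44, and 9 had both P28 libraries above both P14 libraries, against 15.3% of all genes. Snap25, a protein of synaptic vesicle fusion, was at 176 and 247 CPM at P14 and 454 and 504 CPM at P28 (limma adjusted p 0.0551, edgeR adjusted p 0.0262). Kcnc1, a fast potassium channel, and Sncg, gamma-synuclein, also passed edgeR only (adjusted p 0.0404 and 0.0392). Brain markers were present in the same libraries: the summed level of 7 cerebellum and brainstem genes was 151 and 235 CPM at P14 and 344 and 174 CPM at P28. All 7 had a log2 change above 0, while 8677 of all 15944 genes tested were below 0. None of the 7 was called, and the ages overlapped in each. In the P14 libraries Pcp2 of Purkinje cells was at 0 and 5.32 CPM and Cbln1 at 3.31 and 6.53 CPM, and in the P28 libraries Pcp2 was at 7.17 and 0.0232 CPM and Cbln1 at 38.1 and 5.19 CPM. Their part in the neuronal values was not tested.

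The 15 largest named increases started from under 3 CPM in both P14 libraries. Omp, which encodes the olfactory marker protein of olfactory neurons (chr7:98143359-98145502, minus strand), was at 0.140 and 1.27 CPM at P14 and 36.3 and 22.9 CPM at P28 (log2 change 4.21 ± 0.74 SE, limma adjusted p 0.0300). It ranged from 5.24 to 24.3 CPM at 6wk and 10wk. Cbln3, a cerebellar granule cell gene, was at 0.105 and 2.43 against 49.3 and 10.8 CPM (3.65 ± 0.80 SE, limma adjusted p 0.0493) and did not pass edgeR (adjusted p 0.0589). Both genes are known from tissue outside the cochlea, and beside them the airway-type gene Bpifa1 was at 51.5 and 86.6 CPM at P14 and 246 and 52.2 CPM at P28. The summed level of 8 airway-type genes was 61.0 and 97.5 CPM at P14 and 270 and 65.7 CPM at P28, with Scgb1a1 at 0 throughout, and 0 of 7 tested were called. The part of such tissue in the increases was not tested.

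Fgf14, an intracellular regulator of neuronal sodium channels, was at 0 and 0.486 CPM at P14 and 4.80 and 17.5 CPM at P28 (limma adjusted p 0.0401, edgeR adjusted p 0.0879). Gpr39, a zinc-sensing receptor, was at 0.0349 and 0.660 against 10.7 and 8.53 CPM (limma adjusted p 0.0359, edgeR adjusted p 0.0655), and the orphan receptor gene Gpr62 at 0.0174 and 0.139 against 9.37 and 4.36 CPM (limma adjusted p 0.0472). Zfp804a, a zinc finger gene, was at 2.22 and 2.0 against 15.4 and 10.9 CPM (2.17 ± 0.47 SE, limma adjusted p 0.0488), and stayed at 7.62 to 15.9 CPM later. The remaining named increases with an annotated protein were AI854703, Zmat4, Tmem139, BC049352, Zfp78, Ccdc18, Asb2, Tcap and H2-Eb1.

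A few of these were high at P28 and low again later. Zfp78 was at 0.0523 and 0.0174 CPM at P14 and 7.39 and 7.67 CPM at P28 (limma adjusted p 0.0195), but at 1.08 to 1.78 CPM at 6wk and 10wk. Ccdc18 and Asb2 had 0 reads in both P14 libraries, where 3 reads would be 0.0523 and 0.0521 CPM, and were at 4.68 and 8.99 CPM and at 5.84 and 6.79 CPM at P28. Ccdc18 was back at 0.0574 to 0.633 CPM later and Asb2 at 0.301 to 1.28 CPM. Tcap, telethonin of the muscle sarcomere, rose from 1.69 and 0.556 to 10.2 and 10.7 CPM (limma adjusted p 0.0381) and stayed at 10.8 to 18.5 CPM. Beside these genes, of which Asb2 and Tcap are known from muscle, the summed level of 11 skeletal muscle genes was 14.5 and 9.64 CPM at P14 and 4.28 and 57.4 CPM at P28, with Myh7 at 0 in all 4 libraries and none of 9 tested genes called; its part was not tested.

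Immune genes gave single calls. Ifi27l2a, an interferon-induced gene, rose from 12.4 and 22.3 to 50.6 and 113 CPM (log2 change 2.12 ± 0.38 SE, limma adjusted p 0.0305) and stayed at 51.2 to 99.4 CPM at 6wk and 10wk. It was the called 1 of 12 tested interferon genes, whose median change was 0.30. H2-Eb1, a chain of MHC class II, was at 0.0174 and 1.09 CPM at P14 and 14.5 and 6.07 CPM at P28 (limma adjusted p 0.0479, edgeR adjusted p 0.0971). H2-Ab1, another gene of the MHC class II list, was at 5.53 and 2.38 against 0.0367 and 0.0695 CPM (limma adjusted p 0.0966). Mrc1, the mannose receptor of resident macrophages, fell from 8.23 and 10.2 to 0.129 and 0.278 CPM (-3.08 ± 0.53 SE, limma adjusted p 0.0275), whereas Lyz2 was at 29.1 and 27.0 against 32.2 and 34.0 CPM and Csf1r at 23.1 and 20.3 against 18.3 and 33.9 CPM. Mrc1 was at 3.40 to 6.31 CPM at 6wk and 10wk, above P28. Of the 10 macrophage genes, 1 was called.

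Abundant genes also stood among the increases, named here after their values were seen. Gpx3, a secreted glutathione peroxidase, rose from 104 and 146 to 472 and 351 CPM (log2 change 1.72 ± 0.29 SE, limma adjusted p 0.0234). Trf, transferrin, rose from 55.5 and 40.2 to 128 and 120.05 CPM (1.37 ± 0.28 SE, limma adjusted p 0.0414). Ppp1r1a, an inhibitor of protein phosphatase 1, rose from 136 and 125 to 351 and 381 CPM (1.48 ± 0.27 SE, limma adjusted p 0.0356). All 3 also passed edgeR, at adjusted p 0.0056, 0.0291 and 0.0136. Ftl1, Rps21 and Rpl41 were called too, but near-identical copies of these genes can share reads, so that their values are uncertain.

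Decreases outside the matrix were led by Rarres1, Cep41 and Tmprss9. Rarres1, a retinoid-responsive gene (chr3:67478972-67515523, minus strand), was at 160 and 118 CPM at P14 and 9.20 and 2.22 CPM at P28, a fall of the mean by 24.3-fold (log2 change -4.59 ± 0.53 SE, limma adjusted p 0.0026). Tmprss9, a membrane-anchored serine protease gene (chr10:80871848-80899492, plus strand), was at 41.3 and 23.6 against 0.276 and 0.417 CPM (-4.58 ± 0.52 SE, limma adjusted p 0.00223). Cep41, a centrosome and cilium gene, was at 76.1 and 68.9 against 4.5 and 0.695 CPM (-4.59 ± 0.56 SE, limma adjusted p 0.00297). For these 3 genes every P28 value was less than each P14 value. At later ages Tmprss9 stayed at 0.376 to 0.724 CPM and Rarres1 at 4.36 to 8.85 CPM. Cep41 was at 5.70 to 9.63 CPM later, above both P28 libraries. Oc90, otoconin-90, a protein of inner ear otoconia, fell from 21.4 and 15.7 to 0.110 and 0.139 CPM (-4.11 ± 0.46 SE, limma adjusted p 0.00223) and held 0 reads in 4 of the 5 later libraries. Gpsm2, which orients the hair bundle and the mitotic spindle and is a deafness gene, was at 10.1 and 11.3 against 0.110 and 0.139 CPM (-3.37 ± 0.52 SE, limma adjusted p 0.0162) and at 3.12 to 4.43 CPM later.

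Other named decreases were lowest at P28 and not later. Fbxo40, a muscle ubiquitin ligase gene, was at 14.9 and 14.7 CPM at P14 and 0.661 and 0.533 CPM at P28 (log2 change -3.31 ± 0.46 SE, limma adjusted p 0.00886), but at 13.2 to 29.2 CPM at 6wk and 10wk. Trim45 was at 22.9 and 6.31 against 0.331 and 0.255 CPM (limma adjusted p 0.0346) and at 5.02 to 8.75 CPM later. Ormdl1, a regulator of sphingolipid synthesis, was at 24.1 and 8.84 against 1.41 and 0.232 CPM (limma adjusted p 0.0334) and at 7.57 to 14.2 CPM later. Mest, an imprinted growth gene, was at 11.8 and 14.9 against 2.0 and 0.232 CPM (limma adjusted p 0.0359) and at 10.2 to 15.9 CPM later, and Crym, a thyroid hormone-binding protein gene, at 11.1 and 6.36 against 0.129 and 0.209 CPM (limma adjusted p 0.0298) and at 4.16 to 5.46 CPM later. In these 5 genes the later libraries lay well above P28. They also lay above P28 in Cep41, Phex, Gpsm2, Runx2, Sp7, Mrc1, Adamts17, Pcdhb20, Tpx2 and Col22a1. Whether such genes mark an age or the 2 P28 libraries, in which 136 and 74 genes dropped out of 1 replicate alone, cannot be told apart.

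**Figure D5:**
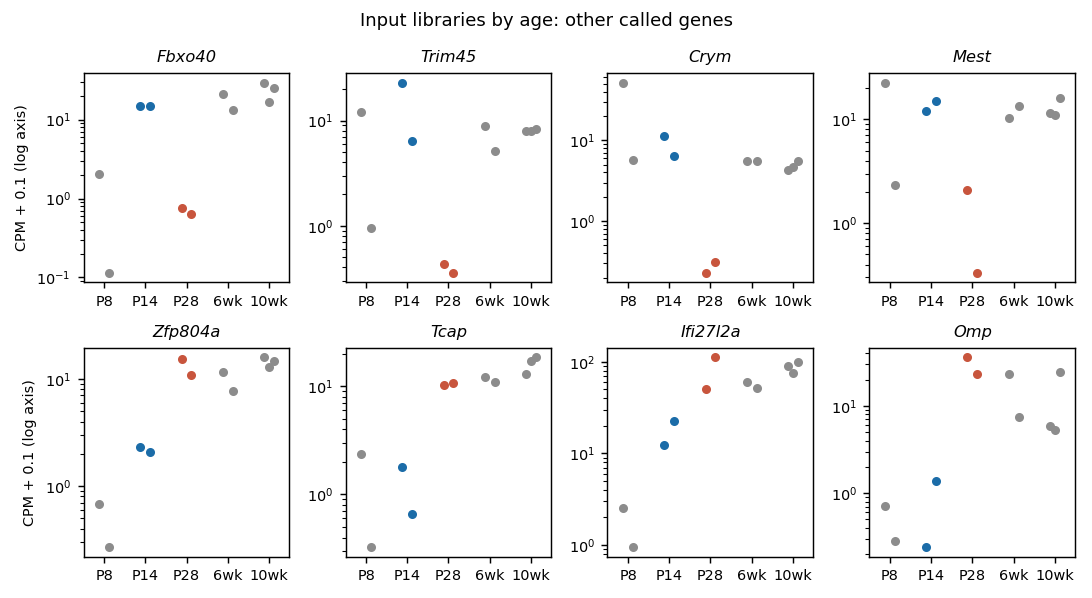
CPM + 0.1 on a log axis for 8 further called genes in every input library, by age; P14 is blue, P28 red and the other ages grey. Fbxo40, Trim45, Crym and Mest are low at P28 and higher at 6wk and 10wk, whereas Zfp804a, Tcap and Ifi27l2a stay high after P28.

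The remaining named decreases were Adamts17, a matrix protease gene, and Pcdhb20, a clustered protocadherin gene. Adamts17 was at 18.0 and 7.18 CPM at P14 and 0.239 and 0.209 CPM at P28 (limma adjusted p 0.0300), and Pcdhb20 at 13.1 and 7.28 against 0.147 and 0.0927 CPM (limma adjusted p 0.0208). At 6wk and 10wk Adamts17 was at 0.543 to 2.35 CPM and Pcdhb20 at 4.52 to 5.48 CPM, above P28. Genes of the cell cycle were low at both ages: of 19 genes of G2 and mitosis tested, 1 fell, Tpx2, from 3.11 and 5.18 to 0 and 0.0232 CPM (limma adjusted p 0.0452). Tpx2 was at 0.744 to 1.38 CPM at 6wk and 10wk, above P28. Mki67 was at 9.75 and 19 against 1.27 and 6.65 CPM (limma adjusted p 0.171). Among 15 genes of DNA replication, limma called none and edgeR 2, both lower. limma called no member in the lists of Schwann cells and myelin, oligodendrocytes, erythroid cells, neutrophils, endothelium, cholesterol synthesis, complement, MHC class I, immediate early genes or mitochondrially encoded mRNAs, and edgeR 1, Hmgcs1 of cholesterol synthesis, which was at 200.5 and 204 against 102.003 and 105 CPM (edgeR adjusted p 0.0311, limma adjusted p 0.0631). In the circadian list limma called none, and Nr1d1, at 18.3 and 22.2 against 56.8 and 49.8 CPM, passed edgeR (adjusted p 0.0139; limma adjusted p 0.0551). The time of day of collection is not given in the sources used here. Among 5 sex-linked genes, limma called none and edgeR 1, lower, with a median change of -1.02. They summed to 55.2 and 113 CPM at P14 and 61.4 and 28.3 CPM at P28. Whether the libraries differ in sex was not tested.

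The other ages gave values from libraries that the comparison of P28 with P14 did not contrast. Against P8, all 5 later libraries (6wk and 10wk) were below both P8 libraries for 22.2% of all genes tested and above for 23.8%, after TMM scaling. Of the 154 genes lower at P28, 85 (55.2%) were below and 8 (5.19%) above, with a median change of -0.61. Of the 45 genes higher at P28, 17 (37.8%) were above and 1 (2.22%) below, with a median of 0.32, against 0.03 for all genes. In P8 replicate 2 the gene Gm42418, which overlaps ribosomal RNA, took 58.3% of gene reads, against 2.98 to 6.30% in the 4 libraries at P14 and P28. The 6wk and 10wk libraries also entered the fit that called these genes, as part of its estimate of the spread.

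The change in whole cochlea was set against that in the tagged-ribosome pulldown of the same ages. No gene of 18263 was called in limma as differing between input and IP in its change (2255 at an unadjusted p under 0.05). The edgeR test called 5, which were Nhp2, Ndufs6, Cog5, Neurl2 and Pcdhgb5, none of them called in the input comparison by limma. Both fits took the libraries as independent and did not pair input with the IP of the same title number. Collagen RNA summed to 8728 and 10784 CPM in the P14 pulldowns and 2866 and 2793 CPM in the P28 pulldowns, so that it was lower at P28 there too. Col2a1 was at 1938 and 1787 CPM in IP at P14 and 255 and 300.1 CPM in IP at P28. Sparc was at 5025 and 7209 CPM in IP at P14 and 4866 and 7265 CPM in IP at P28, a difference between the 2 changes of -2.38 that did not pass limma (adjusted p 0.417). Fbxo40 was at 13.5 and 16.3 CPM in IP at P14 and 10.1 and 16.9 CPM in IP at P28, with a difference of -3.14 (limma adjusted p 0.127). The IP values describe RNA bound to the pulldown.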

How the data were processed

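Total RNA of whole cochlea was sequenced with a directional kit. Alignment was by TopHat on GRCm38, per the submitters' processing notes. How reads were counted, on which strand and with which versions is not given in the sources used here, so overlapping and near-identical genes cannot be told apart. The authors deposited CPM per gene, scaled to 1000000 over 49671 genes and 5 entries that name no gene, which entered no test. All values (100%) were whole multiples of 1 read within 0.01. limma 3.58.1 in R 4.3.3 (trended prior, two-sided) was run on log2(CPM + 1) over the 9 input libraries of P14, P28, 6wk and 10wk, for genes with 2 or more libraries at 1 CPM or above. The adjustment covered all genes tested, at a threshold of 0.05. The difference from IP used 18 libraries, taken as independent, without pairing input with the IP of the same title number. Folds on this scale understate changes of low genes. edgeR 4.0.16 and DESeq2 1.42.0 ran on recovered reads. The design text names P21 where labels name P28; labels were followed.

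Named are the 15 largest called changes each way, for genes that averaged 5 CPM or more in the higher age, have neither a predicted, pseudogene nor RIKEN symbol, and whose ages do not overlap, plus called list members, Slc26a5, Rpl22 and Ocm. Members and lists were chosen with earlier results of these data known. Alternatives were another pseudocount, no filter, other scalings, other sets of libraries, a replicate block and leaving out libraries. Spans are from GENCODE M21 and promoters from RefSeq. The procedure was also run on simulated data, in which all libraries shared the same mean profile apart from the genes changed at P28. These data held no outlying library, so the run does not bear on how the calls here depend on single libraries.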

Additional observations from a re-analysis of the deposited data

How the results depend on the processing

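Against 199 genes called at P28, a pseudocount of 0.25 gave 229. Without the filter on low values limma called 43, with TMM scaling 649, with quantile normalization 563, with CPM over gene reads, without mitochondrial genes and Gm42418, 582, with only the 4 libraries 13, with P8 added 14, with all 22 libraries 41 and without 6wk replicate 2 42; edgeR called 577 and DESeq2 2465 (1081 higher and 1384 lower). Leaving out each compared library gave 3 to 3291 calls. Chosen after the data were seen, TMM scaling gave 13 calls with only the 4 libraries and, leaving out 1 library, 3 to 5051 (3 without P14 replicate 1, 1916 without P14 replicate 2, 5051 without P28 replicate 1 and 2198 without P28 replicate 2); leaving out P14 replicate 1 and P28 replicate 2 together gave 2844. A lone sample is assumed there to vary like the other groups. The cause of these shifts was not tested.

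With the replicate number as a block, 24 genes were called, 22 of the 154 and 2 of the 45, and 27 with TMM scaling and the block. The mice of the 2 ages differ, and their labels share only a number. The correlation of deviations of same-numbered libraries was -0.0207. With 2 libraries a group, both pairs give this same value by construction. It cannot show whether a batch was shared.

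For the difference between input and IP, 0 genes were called with and without the block, 1 with a pseudocount of 0.25, 27 without the filter, 1 with TMM scaling, 1 with only the libraries compared, 5 with edgeR and 0 to 1401 when 1 library was left out (1401 without P28 IP replicate 1, 1201 without P14 IP replicate 2, 260 without P28 input replicate 1 and 30 without P28 IP replicate 2). The block was the replicate number across ages, so no fit paired input with the IP of the same title number.

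Col2a1 and Col9a1 lost their call in 1 setting, TMM scaling without P14 replicate 1 (adjusted p 0.0527 each, limma), and Rarres1 there (0.0531) and without P14 replicate 1 alone (0.0883); these 3 were called in all 15 fits that kept the 4 libraries, and 0 genes in all 24. Of the 15 largest increases, 15 lost their call without 6wk replicate 2 and without P14 replicate 1, and of the 15 largest decreases 5 and, of 13 still tested, 10. Slc26a5 was called lower without P28 replicate 1 (log2 change -1.70; -1.66 with TMM) and higher with TMM without P28 replicate 2 (adjusted p 0.0390) and without P14 replicate 1 and P28 replicate 2 (0.0481, limma). Its change turned positive with quantile normalization (0.47), edgeR (0.72), DESeq2 (0.71), without P14 replicate 2 (0.12; 0.014 with TMM), without P28 replicate 2 (1.44; 1.41 with TMM) and without P14 replicate 1 and P28 replicate 2 (1.2), and that of Rpl22 with TMM scaling without P14 replicate 1 (0.077) or P28 replicate 1 (0.046).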
